A study of Mus musculus with 8 samples.

Results

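The genes described here encode the tumour necrosis factor (TNF) superfamily of ligands, the matching receptor superfamily and the TRAF proteins. Many TRAF proteins are adaptors that bind the receptors inside the cell. Members were taken by symbol from the deposited count table: rows named as Tnfsf or Tnfrsf genes with a number, Traf1 to Traf7, and Cd40, Cd40lg, Cd27, Cd70, Fas, Fasl, Lta, Ltbr, Ngfr and Eda2r. This gave 48 of 41730 rows, of which 34 passed the filter on low counts and were tested. RNA was sequenced from CD8+ T cells of OT-I mice, a strain whose transgenic T cell receptor sees the ovalbumin peptide SIINFEKL. All cultures held bone marrow-derived dendritic cells of LXR-/- genotype pulsed with that peptide, and the T cells were then purified by flow cytometry. The control group (4 libraries) received the solvent DMSO and the RGX-104 group (4 libraries) received 2 uM of this synthetic agonist of the liver X receptors (LXR). The labels give OT-I as the only genotype of the T cells, while the sources used here do not give the time in culture or the age and number of the animals. Nothing says that the libraries of a group came from separate cultures, and the p-values therefore reflect library-to-library spread alone, which may be technical.

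TNF superfamily ligands are mostly trimers on the cell surface, and binding clusters their receptors. Costimulatory receptors of this family, such as 4-1BB, OX40, GITR and CD27, have no catalytic activity of their own. They recruit TRAF proteins, which lead to activation of NF-kB and of stress kinases and support survival and division of activated T cells. Fas, a receptor with a death domain, recruits FADD and caspase-8 instead and is known for removing activated T cells at the end of a response.

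The promoters of 3 members are shown because all hold a match to the gamma-activated motif while the genes differed in direction. Those of Tnfrsf9 and Fas also hold the NF-kB motif. Each sequence covers the 250 bases before an annotated transcription start (RefSeq, GRCm38.p6, plus strand, 5′ to 3′). Capitals mark matches to the NF-kB motif (GGG, any 5 bases, CC) or to the gamma-activated motif TTCNNNGAA, searched on both strands with overlapping matches kept.
Tnfrsf9 (4-1BB), called higher, second annotated start, chr4:150927749-150927998: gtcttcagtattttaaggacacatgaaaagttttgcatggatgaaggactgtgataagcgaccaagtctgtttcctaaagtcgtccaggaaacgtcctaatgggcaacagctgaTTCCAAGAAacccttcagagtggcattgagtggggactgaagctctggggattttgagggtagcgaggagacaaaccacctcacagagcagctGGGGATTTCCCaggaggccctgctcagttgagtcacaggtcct
Tnfrsf18 (GITR), called higher, chr4:156026072-156026321: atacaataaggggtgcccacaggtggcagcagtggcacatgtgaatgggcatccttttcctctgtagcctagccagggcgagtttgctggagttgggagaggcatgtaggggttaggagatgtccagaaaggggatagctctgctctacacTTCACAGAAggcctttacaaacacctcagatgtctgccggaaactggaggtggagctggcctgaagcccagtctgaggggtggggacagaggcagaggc
Fas, called lower, chr19:34290409-34290658: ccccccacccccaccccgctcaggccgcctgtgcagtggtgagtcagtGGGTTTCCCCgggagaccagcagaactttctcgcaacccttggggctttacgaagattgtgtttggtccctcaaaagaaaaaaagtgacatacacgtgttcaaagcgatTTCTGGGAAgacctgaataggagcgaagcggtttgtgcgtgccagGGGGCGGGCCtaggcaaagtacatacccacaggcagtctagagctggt
In Tnfrsf9 the NF-kB motif stood at 43 to 34 and, shifted by a base, at 42 to 33 bases before the start, and the gamma-activated motif at 136 to 128. The other annotated start of Tnfrsf9 held no match to these motifs. In Fas the NF-kB motif stood at 202 to 193 and at 48 to 39 bases before the start and the gamma-activated motif at 93 to 85. In Tnfrsf18 the gamma-activated motif stood at 99 to 91 bases before the start. RefSeq promoters were at hand for 38 of the 48 members and for 6 of the 10 called members, which had 7 starts in all. The NF-kB motif occurred in 4 of these 7 windows, in 19 of 23 windows of tested members that were not called and in 45.8% of all 32851 promoter windows. The gamma-activated motif occurred in 3 of 7, 4 of 23 and 7.02% of windows. The LXR recognition hexamer AGGTCA, occurred in 1 of 7 (Tnfrsf13b), 1 of 23 and 14.0% of windows. These matches describe the letters only and do not show binding.

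The libraries held 30642300 to 37714400 counts. Levels are given as read counts normalised to library size (CPM, with TMM scaling in edgeR), and levels of different genes are compared only as CPM per kb of exon. Of 9 CD8 T cell markers 8 were tested. Lck was called higher, and the 3 genes Cd3e, Cd8a and Cd8b1 lower. Over all genes tested, 4.82% were called higher and 4.13% lower. The fitted changes were 7.0% for Lck, -9.3% for Cd3e, -7.7% for Cd8a and -8.1% for Cd8b1, so these markers were not all stable. The summed level of all 9 was 3230 to 3340 CPM in the controls and 3180 to 3230 CPM after RGX-104. Cd2, which has a numbered copy in the table, had at most 6 counts. Cd4 had at most 14 counts. The 13 myeloid and dendritic cell markers, of which 4 were tested and none passed, summed to 9.14 to 10.4 CPM in the controls and 9.71 to 11.3 CPM after RGX-104. Among them Lyz2 had at most 5, Csf1r at most 2 and Adgre1 at most 2 counts in a library, while Cd68 had 136 to 212 and Zbtb46 87 to 133. Cd68 was at 5.08 and 4.77 CPM and Zbtb46 at 2.91 and 3.77 CPM, and these 2 genes made up most of the sum. In these bulk samples, fewer cells of a type and less RNA per cell cannot be told apart.

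Of the 34 tested members, 9 were higher and 1 was lower with RGX-104 (edgeR quasi-likelihood test, Benjamini-Hochberg adjusted p under 0.05 over all genes). The called share was 29.4% of the tested members, against 8.95% of the 13290 genes tested. In the higher direction it was 26.5% against 4.82% and in the lower direction 2.94% against 4.13%. The 9 higher genes were the ligand genes Cd40lg and Tnfsf9, the receptor genes Tnfrsf13b, Tnfrsf9, Tnfrsf18, Tnfrsf10b and Tnfrsf22, and the adaptor genes Traf1 and Traf4. The lower gene was Fas. The changes were small, from 1.09-fold to 1.33-fold among the higher genes, and the median log2 change of the tested members was 0.015 against 0.001 for all genes. When the test was made against a fold of 1.2 (edgeR glmTreat), 0 members were called and 2, Tnfsf9 and Cd40lg, had an unadjusted p under 0.05. DESeq2 and limma were not run against that fold. In 12 tested members the values of the 2 groups of 4 did not overlap, a share of 35.3% against 14.5% of all genes tested.

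**Figure D1:**
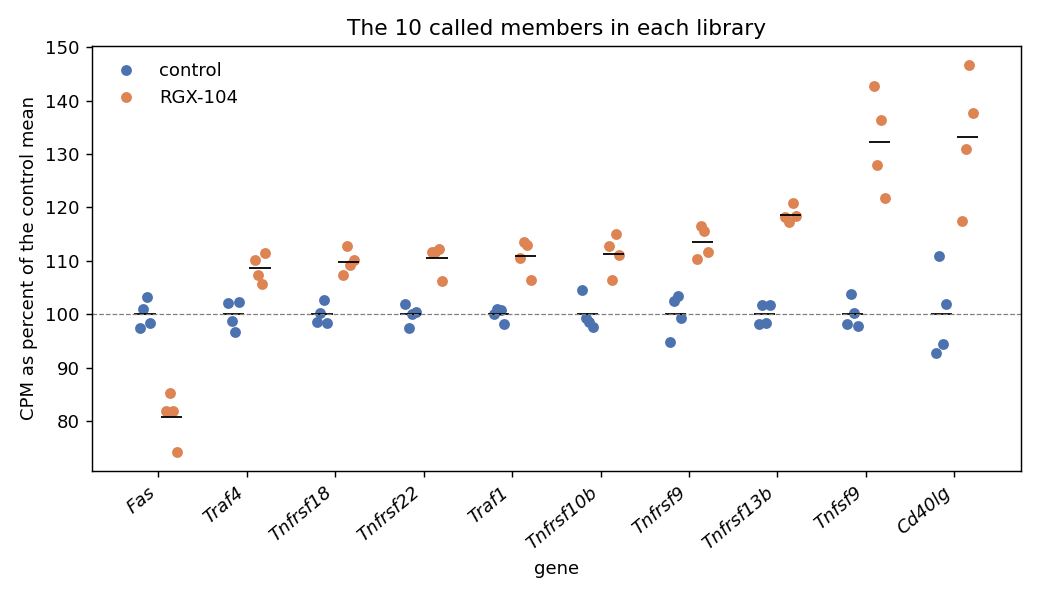
CPM of each called member in each of the 8 libraries (points), as percent of the gene's control mean (vertical axis), with black bars for the mean of each group of 4. The RGX-104 points of Fas lie below and those of the other 9 genes above all control points of the same gene.

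**Figure D2:**
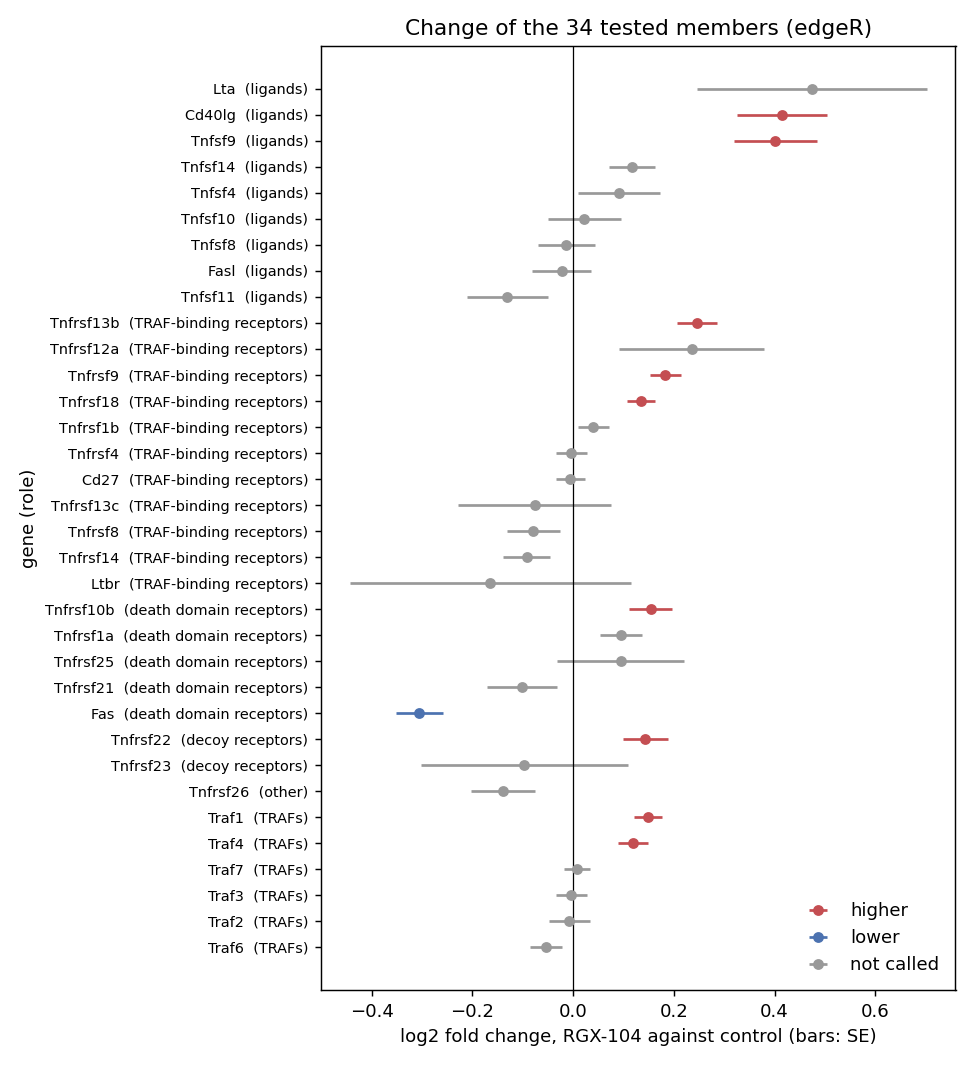
Log2 fold change with RGX-104 (horizontal axis) of the 34 tested members, with bars for the standard error (SE) and with the role of each gene in brackets. Called genes are coloured. Cd40lg and Tnfsf9 lie farthest to the right among them and Fas farthest to the left.

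Among the 15 ligand genes 9 were tested, and the 2 that passed were higher. The called share was 22.2% of the tested ligand genes against 8.95% of all genes tested. The median log2 change of the tested ligand genes was 0.091, against 0.001 for all genes. Cd40lg encodes CD40 ligand, which acts on CD40 of dendritic cells and B cells. Its level was 4.93, 5.90, 5.02 and 5.42 CPM in control libraries 1 to 4 and 6.25, 6.96, 7.79 and 7.32 CPM after RGX-104 1 to 4, numbered by column. All RGX-104 libraries were above all control libraries, and the log2 change was 0.41 ± 0.09 (SE, n = 4 per group, edgeR adjusted p = 0.00276). Tnfsf9 encodes 4-1BB ligand, best known from antigen-presenting cells. Its level was 5.19, 5.48, 5.30 and 5.17 CPM in the controls and 7.54, 6.76, 7.21 and 6.44 CPM after RGX-104. The groups did not overlap, and the log2 change was 0.40 ± 0.08 (edgeR adjusted p = 0.00175). Tnfsf9 lies on chromosome 17 (57105287 to 57107758, GRCm38) and shares 14.9% of its exonic bases with the antisense gene Gm11110. Gm11110 was itself higher, from 3.30 ± 0.366 to 4.23 ± 0.427 CPM (SD, n = 4, edgeR adjusted p = 0.0415). The sources used here do not say whether the counting used strand, so reads of the shared bases cannot be assigned to either gene. Among the dendritic cell markers, Zbtb46 was at 2.91 ± 0.410 CPM in the controls and 3.77 ± 0.454 CPM after RGX-104, with overlapping groups. Its log2 change was 0.37 ± 0.12 (edgeR unadjusted p = 0.00517, adjusted p = 0.0552) and did not pass. This was close in size to the changes of Cd40lg and Tnfsf9. The other tested myeloid and dendritic cell markers did not pass either. Cd68 went the other way, with a log2 change of -0.091 ± 0.098. Itgax and Flt3, with at most 34 and 17 counts, changed by 0.25 ± 0.23 and 0.37 ± 0.43. The part of dendritic cell RNA in the values of these ligand genes was not tested.

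The other 7 tested ligand genes did not pass. Lta, encoding lymphotoxin alpha, had only 17 to 38 counts per library. It was at 0.717 ± 0.262 CPM in the controls and 1.00 ± 0.147 CPM after RGX-104 (SD, n = 4, edgeR adjusted p = 0.221). Numbered copies of Lta held 0 counts in every library, and the low counts of its own row are not read as low expression. Tnfsf14, encoding LIGHT, was the ligand gene of highest level per length. It was at 25.8, 24.9, 24.4 and 25.3 CPM in the controls and 28.9, 25.0, 27.7 and 27.4 CPM after RGX-104, so that RGX-104 library 2 lay within the control range. Its adjusted p was 0.115, and 0.0365 without RGX-104 library 2 (edgeR). Fasl, encoding the ligand of Fas, was at 14.3 ± 0.849 and 14.1 ± 0.750 CPM, with a 95% interval of the log2 change from -0.14 to 0.099. The death ligand gene Tnfsf10 (TRAIL) was at 18.1 ± 2.31 and 18.3 ± 0.746 CPM, and Tnfsf8 (CD30 ligand) at 19.4 ± 1.15 and 19.2 ± 1.54 CPM. Tnfsf4, the OX40 ligand gene, was at 8.80 ± 1.09 and 9.36 ± 0.618 CPM.

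Tnfsf11 encodes RANK ligand, which activated T cells can express. It was at 16.2, 14.2, 15.3 and 15.2 CPM in control libraries. In RGX-104 libraries 1 and 4 it was at 15.7 and 15.6 CPM, within the control range, and in RGX-104 libraries 2 and 3 at 11.8 and 12.6 CPM, below it. The gene did not pass (log2 change -0.13 ± 0.08, edgeR adjusted p = 0.367).

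Of the 16 receptor genes listed as binding TRAF proteins without a death domain, 11 were tested and the 3 that passed were higher. The called share was 27.3% against 8.95% of all genes tested (median log2 change -0.003). Tnfrsf9 encodes 4-1BB, an inducible costimulatory receptor of activated CD8 T cells and the receptor of the Tnfsf9 product. It was at 161, 173, 175 and 168 CPM in the controls and 187, 197, 196 and 189 CPM after RGX-104. The lowest RGX-104 library was above the highest control library, and the log2 change was 0.18 ± 0.03 (edgeR adjusted p = 1.90e-04). A numbered copy of Tnfrsf9 in the table held at most 16 counts against 5600 to 6973 in the gene's own row. Tnfrsf18 encodes GITR, another costimulatory receptor. It was at 167, 169, 173 and 166 CPM in the controls and 181, 190, 184 and 186 CPM after RGX-104, again without overlap, with a log2 change of 0.14 ± 0.03 (edgeR adjusted p = 0.00185). Its antisense neighbour Gm16008 shares 27.2% of the exonic bases of Tnfrsf18 and had at most 191 counts against at least 5600 of Tnfrsf18. Gm16008 changed in the same direction without passing (log2 change 0.21 ± 0.11, edgeR adjusted p = 0.247). As for Tnfsf9, the strand setting is not known, so reads of the shared bases cannot be assigned to either gene.

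Tnfrsf13b encodes TACI, a receptor for BAFF and APRIL best known from B cells. It was at 25.4, 26.4, 25.5 and 26.4 CPM in the controls and 30.6, 30.4, 31.3 and 30.7 CPM after RGX-104. This was the largest increase among the called receptor genes, a log2 change of 0.25 ± 0.04 (edgeR adjusted p = 1.05e-04), with a narrow spread in each group. The B cell genes Pax5 and Ms4a1 had at most 1 and 0 counts in a library. Cd79b was at 4.26 and 4.24 CPM in the controls and after RGX-104, respectively, and the 5 B cell markers summed to 3.96 to 5.45 and 4.37 to 4.70 CPM. Tnfrsf13c, encoding the BAFF receptor, was at 2.23 ± 0.447 and 2.12 ± 0.326 CPM and did not pass. The ligand genes of these receptors, Tnfsf13b and Tnfsf13, had at most 11 and 2 counts.

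Tnfrsf4 and Cd27, whose products OX40 and CD27 are also costimulatory, were near their control level. Tnfrsf4 was at 203, 193, 197 and 203 CPM in the controls and 206, 192, 192 and 205 CPM after RGX-104, and the 95% interval of its log2 change ran from -0.066 to 0.059. Cd27 was at 164, 168, 174 and 167 CPM in the controls and 162, 171, 171 and 165 CPM after RGX-104, with an interval from -0.065 to 0.054. Tnfrsf4 and Tnfrsf18 are neighbours on chromosome 4, at 156013595 to 156016613 and 156026322 to 156028894. The fitted changes of these neighbours were -0.0035 and 0.14 on the log2 scale, and the difference between them was not tested.

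The remaining receptor genes of this class did not pass. Tnfrsf1b, encoding TNF receptor 2, was at 160 ± 3.63 and 164 ± 6.20 CPM. Tnfrsf14, encoding HVEM, the receptor of LIGHT, was at 77.3, 78.3, 75.6 and 65.2 CPM in the controls and 69.8, 71.3, 69.7 and 67.0 CPM after RGX-104. Control library 4 was the lowest of all 8, and 3 control libraries lay above every RGX-104 library. The log2 change was -0.093 ± 0.047 (edgeR adjusted p = 0.266), and -0.15 without control library 4 (adjusted p = 0.00394). Tnfrsf8 (CD30) was at 21.1 ± 1.46 and 20.01 ± 0.846 CPM. Tnfrsf12a, the TWEAK receptor gene, was at 1.96 ± 0.280 and 2.31 ± 0.337 CPM. Ltbr, the lymphotoxin beta receptor gene, had 11 to 24 counts per library.

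Of 6 death domain receptor genes 5 were tested. Tnfrsf10b was higher, Fas was lower and 3 did not pass, a called share of 40% against 8.95% of all genes (median log2 change 0.094). Fas lies on chromosome 19 (34290647 to 34327775). It was at 25.3, 26.3, 26.8 and 25.6 CPM in the controls and 21.3, 22.1, 21.3 and 19.3 CPM after RGX-104. Every RGX-104 library was below every control library, and the level fell by 19.1% (log2 change -0.31 ± 0.05, edgeR adjusted p = 5.42e-05), the smallest p among the members. Tnfrsf10b encodes the mouse death receptor for TRAIL. It was at 25.6, 24.4, 24.2 and 23.9 CPM in the controls and 27.6, 26.1, 28.2 and 27.2 CPM after RGX-104, a log2 change of 0.15 ± 0.04 (edgeR adjusted p = 0.0214). The groups did not overlap, but the call was lost with DESeq2 (adjusted p = 0.0527) and with 1 surrogate variable (edgeR adjusted p = 0.118). It was also lost without control library 3 or 4 or RGX-104 library 1 or 3 (edgeR adjusted p 0.0555 to 0.0873). Tnfrsf1a, encoding TNF receptor 1, was at 22.9 to 24.2 CPM in the controls and 24.9 to 25.6 CPM after RGX-104, without overlap, yet did not pass (edgeR adjusted p = 0.167). Tnfrsf21 (death receptor 6) was at 8.97 ± 0.546 and 8.35 ± 0.234 CPM, and Tnfrsf25 (death receptor 3) at 2.42 ± 0.362 and 2.58 ± 0.0992 CPM.

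Tnfrsf26, Tnfrsf22 and Tnfrsf23 are related genes side by side on chromosome 7, from 143607685 to 143686436, and reads may be shared between such relatives. Tnfrsf22 and Tnfrsf23 encode decoy receptors for TRAIL. Tnfrsf22 was at 20.3, 19.4, 19.9 and 19.97 CPM in the controls and 22.2, 22.2, 22.3 and 21.1 CPM after RGX-104, a log2 change of 0.14 ± 0.04 (edgeR adjusted p = 0.0426). This call was the closest to the threshold and was lost with DESeq2 (adjusted p = 0.114) and when any library other than control 1 or RGX-104 library 4 was left out (edgeR adjusted p 0.0678 to 0.120). Tnfrsf26 went the other way without passing, from 10.4 ± 0.392 to 9.44 ± 0.274 CPM with no overlap of the groups (edgeR adjusted p = 0.193). Tnfrsf23 had 19 to 34 counts per library.

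Of the 7 TRAF genes 6 were tested and the 2 that passed were higher. The called share was 33.3% against 8.95% of all genes tested (median log2 change 0.002). TRAF1 is induced by activation and binds 4-1BB together with TRAF2. Traf1 was at 226, 229, 228 and 222 CPM in the controls and 250, 257, 256 and 241 CPM after RGX-104, a log2 change of 0.15 ± 0.03 without overlap (edgeR adjusted p = 6.71e-04). Traf4 was at 130, 126, 123 and 130 CPM in the controls and 140, 136, 134 and 142 CPM after RGX-104, a log2 change of 0.12 ± 0.03 (edgeR adjusted p = 0.00998). The Traf4 call was lost without control library 3 (adjusted p = 0.0584), without RGX-104 library 4 (0.052) and without RGX-104 libraries 1 and 2 together (0.119). Traf2 was at 57.7 ± 4.14 and 57.4 ± 0.469 CPM, Traf3, a brake on noncanonical NF-kB signalling, at 90.2 ± 2.47 and 89.98 ± 2.00 CPM, and Traf7 at 213 ± 2.07 and 214 ± 2.90 CPM. Traf6, which also serves interleukin 1 and Toll-like receptors, was at 120 ± 4.61 and 116 ± 3.83 CPM (edgeR adjusted p = 0.348). The 95% intervals of the log2 changes of Traf2, Traf3 and Traf7 ran from -0.092 to 0.076, -0.068 to 0.060 and -0.047 to 0.062. The Traf5 row held 0 counts in every library. A numbered copy named Traf5_1, outside the member rule, held 107 to 149 counts and was at 3.95 ± 0.333 and 3.60 ± 0.200 CPM (edgeR adjusted p = 0.482), so the 0 of the Traf5 row is not read as absence.

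Per kb of exon the receptors of T cell costimulation led the family (exon lengths from GENCODE vM21). In control libraries Tnfrsf4 stood at 146 ± 3.51 CPM per kb, Tnfrsf18 at 111 ± 2.15, Cd27 at 72.2 ± 1.64, Tnfrsf9 at 62.2 ± 2.39, Tnfrsf14 at 51.5 ± 4.21 and Tnfrsf1b at 41.9 ± 0.950 (SD, n = 4). Neighbours in this order differed by more than their SDs. In RGX-104 libraries Cd27 at 71.9 ± 1.93 and Tnfrsf9 at 70.6 ± 1.84 CPM per kb were within their SDs of each other. Among ligand genes the control level per kb was highest for Tnfsf14, at 13.6 ± 0.323, above Fasl at 7.40 ± 0.438 and Tnfsf11 at 6.80 ± 0.365, which overlap within SD. Cd40lg stood at 4.25 ± 0.352 and Tnfsf9 at 4.098 ± 0.110 CPM per kb, which overlap within SD. Fas was at 12.6 ± 0.329 CPM per kb in control and 10.2 ± 0.582 in RGX-104 libraries. Tnfrsf1a, the next death domain receptor gene, was at 9.16 ± 0.217 and 9.78 ± 0.119, so that with RGX-104 the levels of both were within their SDs.

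**Figure D3:**
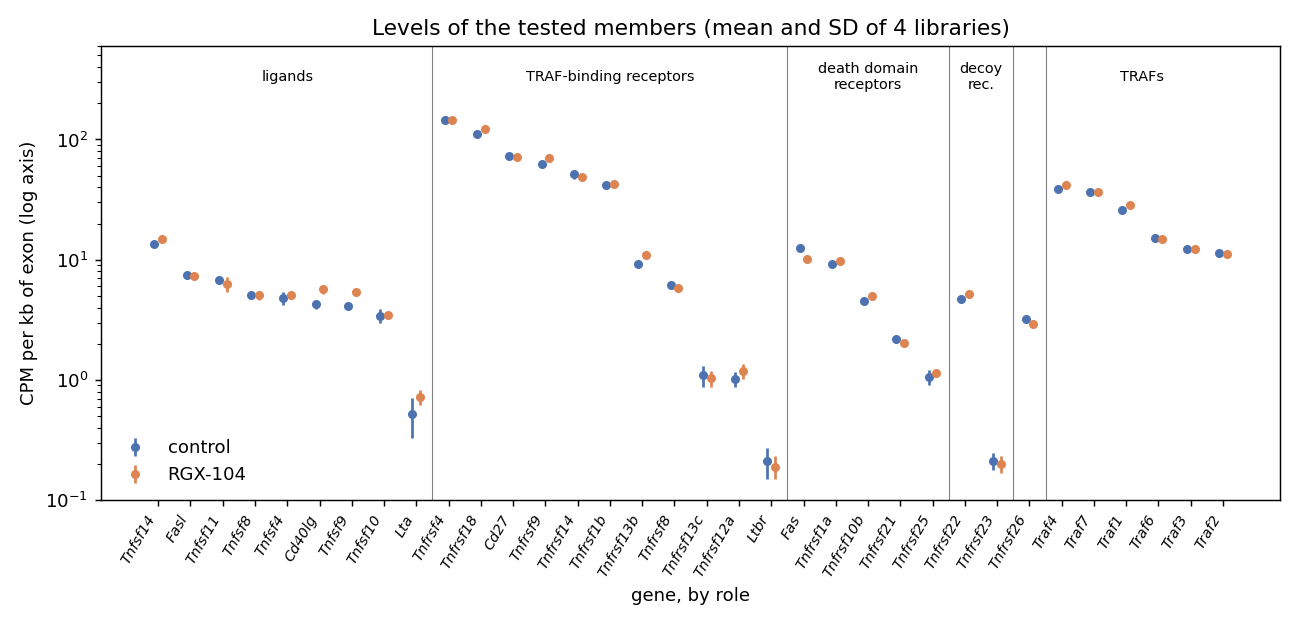
Level of each tested member in CPM per kb of exon (log axis), with means and SDs of 4 libraries for control and RGX-104, grouped by role from left to right (Tnfrsf26 alone between decoy receptors and TRAFs). Tnfrsf4, Tnfrsf18, Cd27 and Tnfrsf9 stand highest, and Ltbr, Tnfrsf23 and Lta lowest.

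The 14 members that did not pass the filter had at most 21 counts in any library. They included Cd70, the ligand gene of CD27, with at most 7 counts, Tnfsf18, the ligand gene of GITR, with at most 1, and Cd40, the receptor of CD40 ligand, with 2 to 21. Tnfsf15, the ligand gene of death receptor 3, had at most 4 counts and Tnfsf12 (TWEAK) at most 3. Tnfrsf19, Tnfrsf11b (osteoprotegerin), Tnfrsf17 (BCMA), Ngfr and Eda2r had at most 11, 7, 1, 2 and 7. Tnfrsf11a encodes RANK, the receptor of RANK ligand. Its counts were 1, 3, 7 and 1 in control and 8, 9, 7 and 7 in RGX-104 libraries. In the fit on every gene with a count its log2 change was 1.45, which rests on these few reads and was not called (edgeR adjusted p = 0.0686). Tnf and Ltb, outside the member rule, held 0 counts in every library in their own rows and in all numbered copies, which does not show that they were not expressed.

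Genes that act downstream of the receptors were taken from lists that were chosen with earlier results of these data known. In the canonical NF-kB list 1 of 17 tested genes was higher and 2 were lower, a called share of 17.6% against 8.95% of all genes, and the median log2 change was 0.016. Rel, encoding the c-Rel subunit, rose from 153 to 167 CPM (log2 change 0.13 ± 0.03, edgeR adjusted p = 0.00831). Nfkb1, encoding the p105 precursor of p50, fell by 6.53% (log2 change -0.097 ± 0.029, adjusted p = 0.0346), and Rnf31, a subunit of the linear ubiquitin ligase, changed by -0.099 ± 0.031 (adjusted p = 0.0438). Nfkbia, encoding the inhibitor IkBa and itself an NF-kB target, was at 66.7 and 67.7 CPM and did not pass. In the noncanonical list 1 of 6 passed, a called share of 16.7% against 8.95% of all genes (median log2 change 0.016). Birc2, encoding cIAP1, a ligase that TRAF2 brings to receptors, was higher by 0.14 ± 0.04 (log2, edgeR adjusted p = 0.0172). Map3k14, encoding the kinase NIK, was at 39.6 and 43.0 CPM (adjusted p = 0.0587), Birc3 at 85.1 CPM in both groups and Nfkb2 at 220 and 225 CPM.

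Of 12 genes listed as feedback inhibitors the 2 that passed were lower, a called share of 16.7% against 8.95% of all genes (median log2 change -0.002). Trafd1, a negative regulator of innate signalling, fell from 49.1 to 42.6 CPM (log2 change -0.21 ± 0.04, edgeR adjusted p = 0.00136). Tnfaip8l2 changed by -0.19 ± 0.06 and passed only narrowly (edgeR adjusted p = 0.0497). Its groups overlapped, at 15.03 to 18.63 CPM in the controls and 13.95 to 15.45 CPM after RGX-104. The alternative runs were read per gene for the members only, so calls in the downstream lists rest on the main test. Tnfaip3, encoding the deubiquitinase A20, was at 72.3 and 75.0 CPM and did not pass. Among genes of death receptor signalling, Mlkl, the effector of necroptosis, fell from 49.9 to 44.4 CPM (log2 change -0.17 ± 0.04, edgeR adjusted p = 0.00295). The initiator Casp8 was at 123 and 127 CPM and its inhibitor Cflar at 74.0 and 76.1 CPM, and neither passed. In the list of the JNK and p38 kinases 1 of 9 passed, a called share of 11.1% against 8.95% of all genes (median log2 change -0.048). The gene was Jun, a target of JNK, which changed by -0.34 ± 0.04 (log2, edgeR adjusted p = 1.76e-07). Of the proteases that release TNF family proteins from the surface and their cofactors, 3 were tested and did not pass (median log2 change 0.048). Relt, a receptor gene of the superfamily that the symbol rule does not take, was higher by 0.13 ± 0.04 (log2, adjusted p = 0.0323).

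**Figure D4:**
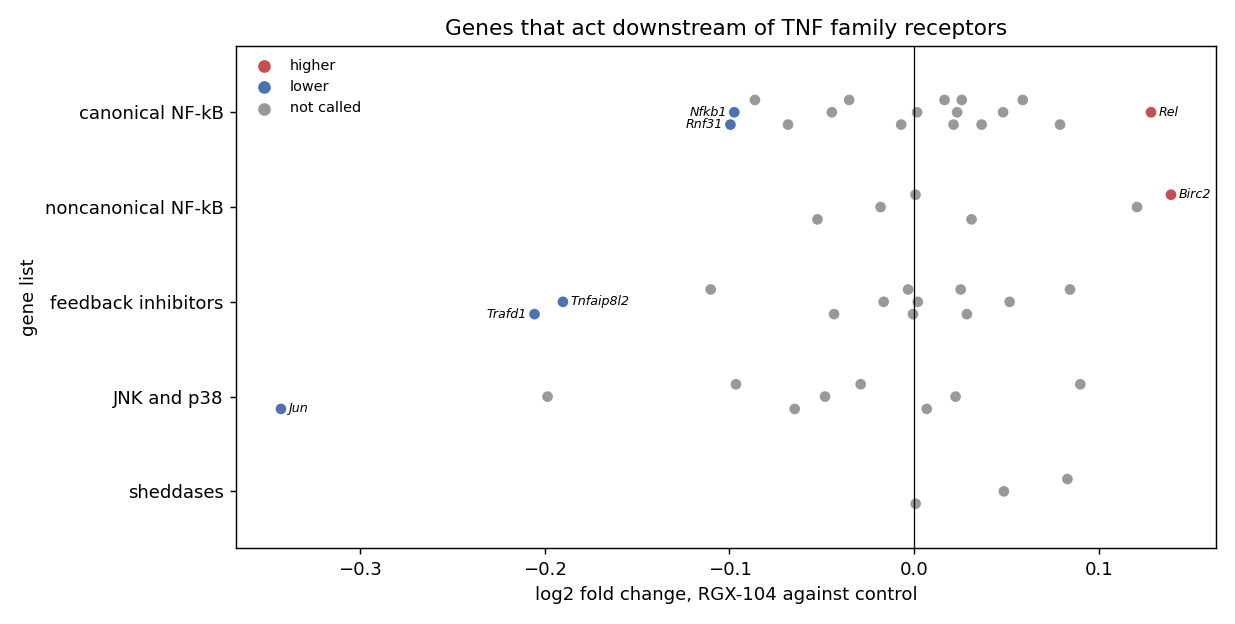
Log2 fold change with RGX-104 (horizontal axis) of the tested genes of 5 downstream lists (rows), where called genes are coloured and named and vertical offsets only separate points. Among the called genes Birc2 lies farthest to the right and Jun farthest to the left.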

How the data were processed

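RNA sequencing of 8 libraries was deposited by the authors as 1 table of raw read counts per gene, not normalized. The build was GRCm38, and STAR 2.7.5, cutadapt 2.10, DESeq2 1.4 and R 4.1.0 were named, per the submitters' processing notes. How reads were counted, on which annotation and with which strand setting, is not given in the sources used here. The 4 control columns matched numbered samples. The RGX-104 columns showed only their group and are numbered by column. Genes were kept with filterByExpr (minimum count 10, minimum total 15), scaled by TMM and tested in edgeR 4.0.16 (R 4.3.3) with its robust quasi-likelihood F-test, treatment being the only term and p-values being adjusted over all 13290 genes. SEs were derived from the F statistic. The script was tested on simulated counts. Alternatives used DESeq2 1.42.0, limma 3.58.1 (voom), sva 3.50.0, other scalings, filters and thresholds, and left out each library. Members, lists and named genes were chosen with earlier results of these data known. Every called member was named with all libraries, as were a set of T cell members. Of each downstream list, up to 4 called genes of the largest change were named, with a set of core genes. Coordinates and promoters came from RefSeq (GRCm38.p6), and exon lengths from GENCODE vM21. Coordinates and lengths were found for all 48 members. Some genes of the death receptor signalling list are not reported here. Genes that share exonic bases with members were looked up after the results were seen.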

Additional observations from a re-analysis of the deposited data

Results flagged for a closer look

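In 68 groups of 4 libraries, 2 held a library far from the other 3, where chance gives about 1 in 20 groups. Traf2 was at 63.9 CPM in control library 1 against 55.0 to 56.1 CPM in the other control libraries. Tnfrsf22 was at 21.1 CPM in RGX-104 library 4 against 22.2 to 22.3 CPM in the others.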

How the results depend on the processing

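The count of 9 higher members was 6 to 9 when each library was left out, 7 with DESeq2 and 7 with 1 surrogate variable, and 0 when tested against a fold of 1.2. The count of 1 lower member was 1 to 2 when each library was left out, 2 with 1 surrogate variable (Tnfrsf14 was added here and without control library 4) and 0 against that fold. Over all genes 1189 were called, 790 with 1 surrogate variable, 110 against a fold of 1.2, 624 at an adjusted p under 0.01 and 510 with RGX-104 libraries 1 and 2, 1 of each closest pair, left out. That last setting, in which 6 members were called higher and 1 lower, was chosen after seeing the data, as were thinning and summed copies. How closeness of the pairs was measured is not given here. Traf1, Tnfrsf9, Tnfrsf18, Tnfrsf13b, Tnfsf9, Fas and Cd40lg were called in all 19 alternatives fitted per gene at the main threshold. Tnfrsf22 lost its call in 11, Tnfrsf10b in 7 and Traf4 in 3 of the 19. No called member changed sign. Some members that were not called did, each with a log2 change in the main fit that was smaller than its SE, and the cause was not tested. Leaving out each library gave log2 changes of -0.06 to 0.007 for Fasl, -0.031 to 0.044 for Traf2, -0.055 to 0.087 for Tnfsf10, -0.058 to 0.032 for Tnfsf8, -0.02 to 0.013 for Tnfrsf4, -0.017 to 0.009 for Cd27, -0.018 to 0.013 for Traf3 and -0.194 to 0.003 for Tnfrsf13c. With 1 surrogate variable Fasl was at 0.049, Tnfrsf4 at 0.002, Cd27 at 0.003 and Tnfrsf13c at 0.107. With upper-quartile scaling and with library size only, Traf2 was at 0.004 and 0.003, Tnfrsf4 at 0.008 and 0.007, Cd27 at 0.006 and 0.005 and Traf3 at 0.008 and 0.007. With limma, Traf2 was at 0.007, Ltbr at 0.004 and Traf3 at 0.001. Thinned to the smallest library, Traf2 was at 0.003, Tnfsf10 at -0.004 and Tnfsf8 at 0.003. With the pair members left out, Fasl was at 0.038, Tnfsf8 at 0.037, Ltbr at 0.042 and Tnfrsf23 at 0.047. The filter of at least 50 counts in 4 libraries leaves Ltbr, Tnfrsf23 and Lta without a value. Low counts limit these genes and the untested members. No paired analysis was possible because the labels give no pairing of control and RGX-104 libraries. The RGX-104 columns are also not tied to numbered samples.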
